A study of Mus musculus with 10 samples.

Results

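Hox genes encode homeodomain transcription factors that lie side by side in clusters and give the hindbrain, spinal cord and body axis their position along the head-to-tail axis. The number in a gene's name is its paralog group. Genes of low number are switched on up to an anterior limit in the hindbrain, genes of higher number only further back, toward and within the spinal cord, and forebrain and midbrain neurons normally express none of them. Hox RNA in a whole brain therefore comes mainly from its caudal end. Homeotic genes are also classic targets of the chromatin-remodelling complexes to which Arid1b, a DNA-binding subunit of the BAF complex, belongs.

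The 10 Hox genes described here were *Hoxa2*, *Hoxb2*, *Hoxa3*, *Hoxb3*, *Hoxb4*, *Hoxd4*, *Hoxa5*, *Hoxb5*, *Hoxb6* and *Hoxb8*, taken by symbol from a table of 18444 genes. They were chosen by their presence in the table and selected on their normalised counts library by library, so those levels are given as a description without a test. The libraries held poly-A mRNA of whole brains taken at postnatal day 3 from 10 C57BL/6N males, with no treatment stated. Wild-type mice (WT) numbered 5 and heterozygous mice (HT) 5, the latter carrying a CRISPR/Cas9 edit at exon 5 of 1 *Arid1b* allele, a deletion with an inserted TT, that truncates the protein and is present in all tissues, and each mouse gave 1 library. The point at which brainstem and spinal cord were parted at dissection is not given in the sources used here.

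The libraries held 27.2 M to 29.03 M normalised counts, from an estimated 24.96 M to 31.2 M reads, and 1 read was worth 0.899 to 1.137 normalised counts. A normalised read count is the estimated reads of a gene divided by a size factor of the library. *Arid1b* itself was at 1505 to 2372 in HT and at 3108 to 3597 in WT. Its mean ± SD was 2101 ± 343 over the 5 HT mice and 3335 ± 203 over the 5 WT mice. The fold change of *Arid1b* was -0.68 on the log2 scale (SE 0.11), with a limma adjusted p of 0.390 over all genes and 2.52e-04 without the library HT 4. HT 4 stood apart from the other libraries over all genes, and the Hox results are therefore given with and without it.

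The Hox RNAs differed far more from mouse to mouse than between the genotypes, and posterior genes on the whole ranged more widely than anterior ones. *Hoxa2*, the most anterior and steadiest member, stayed between 6.23 and 67.6 normalised counts. *Hoxb8*, the most posterior one, was listed at 0 in 5 libraries and reached 224 in HT 5. HT 3 and HT 5 were among the 3 highest libraries for every member, and WT 2 was lowest, or listed at 0 with others, for all but *Hoxb2*. HT 1 and HT 2 held group 2 and 3 transcripts but little of groups 5 to 8. No member passed the test between HT and WT.

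Upstream sequences of 3 members are shown because they span the range from the steadiest to the widest gene and differ in base composition. Each is the 250 bases before the annotated start, read 5′ to 3′ on the strand of the gene from RefSeq promoter windows of GRCm38.p6, and 6 of the 10 members had such a window. Capitals mark matches, on either strand, to 5 motifs searched by their letters: TGATNNAT for PBX-HOX, TGACAG for MEIS, AGGTCA for a retinoic acid receptor site, TTTATG for CDX and TATAAA for the TATA box. *Hoxa2* is from chr6:52164832-52165081 on the minus strand, *Hoxa5* from chr6:52204588-52204837 on the minus strand and *Hoxb8* from chr11:96281655-96281904 on the plus strand, and none of these windows overlaps an annotated exon.
Hoxa2: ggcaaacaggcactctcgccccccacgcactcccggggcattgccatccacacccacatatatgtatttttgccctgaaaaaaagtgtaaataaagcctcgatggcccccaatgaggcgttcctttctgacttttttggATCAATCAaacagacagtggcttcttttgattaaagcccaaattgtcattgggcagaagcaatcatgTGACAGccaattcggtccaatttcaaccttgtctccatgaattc
Hoxa5: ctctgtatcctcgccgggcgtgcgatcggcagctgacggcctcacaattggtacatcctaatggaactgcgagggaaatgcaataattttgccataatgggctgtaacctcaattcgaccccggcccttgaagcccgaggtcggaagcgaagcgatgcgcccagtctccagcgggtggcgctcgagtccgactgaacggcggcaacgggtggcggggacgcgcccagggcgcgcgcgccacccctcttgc
Hoxb8: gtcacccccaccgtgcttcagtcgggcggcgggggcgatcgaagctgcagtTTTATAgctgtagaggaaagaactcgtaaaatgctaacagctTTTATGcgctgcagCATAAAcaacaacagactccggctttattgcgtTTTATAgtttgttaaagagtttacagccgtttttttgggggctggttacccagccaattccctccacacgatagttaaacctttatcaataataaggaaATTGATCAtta

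The *Hoxa2* window held 1 PBX-HOX and 1 MEIS match, and the *Hoxb8* window held 1 PBX-HOX, 2 CDX and 2 TATA matches, none of them overlapping. The *Hoxa5* window held no match, which says only that these letters are not in this window. PBX and MEIS proteins bind DNA together with Hox proteins, and CDX proteins regulate posterior Hox genes in the embryo. Over all 32841 promoter windows of 250 bases, 7.69% held the PBX-HOX letters, 15.9% the MEIS letters, 14% the receptor letters, 10.8% the CDX letters and 12.4% the TATA letters, so each match is a description of the sequence and not of a bound site. CpG dinucleotides numbered 6 in the *Hoxa2* window, 28 in that of *Hoxa5* and 12 in that of *Hoxb8*, against a median of 6 over all windows. Their observed-to-expected ratios were 0.466, 1.108 and 0.974, against a median of 0.374.

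Group 2 and group 3 genes pattern the hindbrain and the branchial arches. Positions are those of GRCm38, and values are normalised read counts throughout. *Hoxa2* (ENSMUSG00000014704, chromosome 6, 52162417 to 52164831), which sets the identity of the second branchial arch and anterior hindbrain segments, had normalised counts of 39.2, 24.7, 46.7, 42.6 and 67.6 in HT 1 to HT 5 and of 37.0, 6.23, 26.1, 24.9 and 54.3 in WT 1 to WT 5. *Hoxb2* (ENSMUSG00000075588, chromosome 11, 96350525 to 96354012), which acts in the hindbrain segment of the facial nerve, had 3.48, 12.5, 49.96, 22.7 and 44.7 in HT and 23, 8.12, 19.6, 23.9 and 23.4 in WT. WT 2 was lowest of all libraries for *Hoxa2*, HT 1 was lowest for *Hoxb2*, and the genotypes overlapped for both. *Hoxa3* (ENSMUSG00000079560, chromosome 6, 52169062 to 52213336), needed for the glossopharyngeal nerve and the thymus, had 39.6, 18.1, 76.7, 76.7 and 114.5 in HT and 53.0, 3.68, 57.7, 62.8 and 62.3 in WT. *Hoxb3* (ENSMUSG00000048763, chromosome 11, 96323326 to 96347930), which acts in the caudal hindbrain, had 68.3, 56.1, 143.7, 95.4 and 247.1 in HT and 98.4, 17.7, 106.5, 129.1 and 158.5 in WT. In both group 3 genes HT 5 was highest and WT 2 lowest, and the remaining 4 WT libraries lay close together for *Hoxa3*.

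Group 4 genes have their anterior limit in the last hindbrain segments. *Hoxb4* (ENSMUSG00000038692, chromosome 11, 96318267 to 96321638), also known for its action in blood stem cells, had 4.31, 2.70, 42.7, 16.3 and 68.2 in HT and 10.5, 0, 18.7, 21.1 and 26.1 in WT. *Hoxd4* (ENSMUSG00000101174, chromosome 2, 74711929 to 74729160) had 7.91, 0, 48.7, 6.49 and 29.9 in HT and 7.02, 0, 10.7, 16.2 and 10.5 in WT. HT 3 and HT 5 were the highest libraries for both genes, and WT 2 was listed at 0 for both, as was HT 2 for *Hoxd4*.

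Groups 5 to 8 cover the junction of hindbrain and spinal cord and the cord itself. *Hoxa5* (ENSMUSG00000038253, chromosome 6, 52201754 to 52204587), required in phrenic motor neurons and the respiratory tract, had 23.01, 11.8, 394, 110 and 438 in HT and 33.7, 4.50, 133, 247 and 113 in WT. *Hoxb5* (ENSMUSG00000038700, chromosome 11, 96303336 to 96306121), active in vagal neural crest, had 6.63, 7.36, 427, 108 and 472 in HT and 55.1, 5.47, 110, 209 and 177 in WT. The highest library exceeded the lowest by 97.4-fold for *Hoxa5* and by 86.3-fold for *Hoxb5*, with WT 2 lowest and HT 5 highest for both. *Hoxb6* (ENSMUSG00000000690, chromosome 11, 96292476 to 96301569) had 0, 0, 62.4, 4.15 and 60.3 in HT and 1.94, 0, 16.0, 50.6 and 20.5 in WT. *Hoxb8* (ENSMUSG00000056648, chromosome 11, 96281905 to 96285315), expressed in the spinal cord and in blood progenitors that give rise to some microglia, had 0, 0, 223, 0 and 224 in HT and 0, 0, 42.1, 73.0 and 13.01 in WT. The *Hoxb8* values thus fell into 5 libraries listed at 0 and 5 with reads, and each genotype was represented in both. An entry of 0 can also be a failed estimate: of 14049 genes with a mean of at least 50, 16 were listed at 0 in some library, most of them pseudogenes or members of duplicated families, and *Hoxb8* was 1 of the 16.

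**Figure D1:**
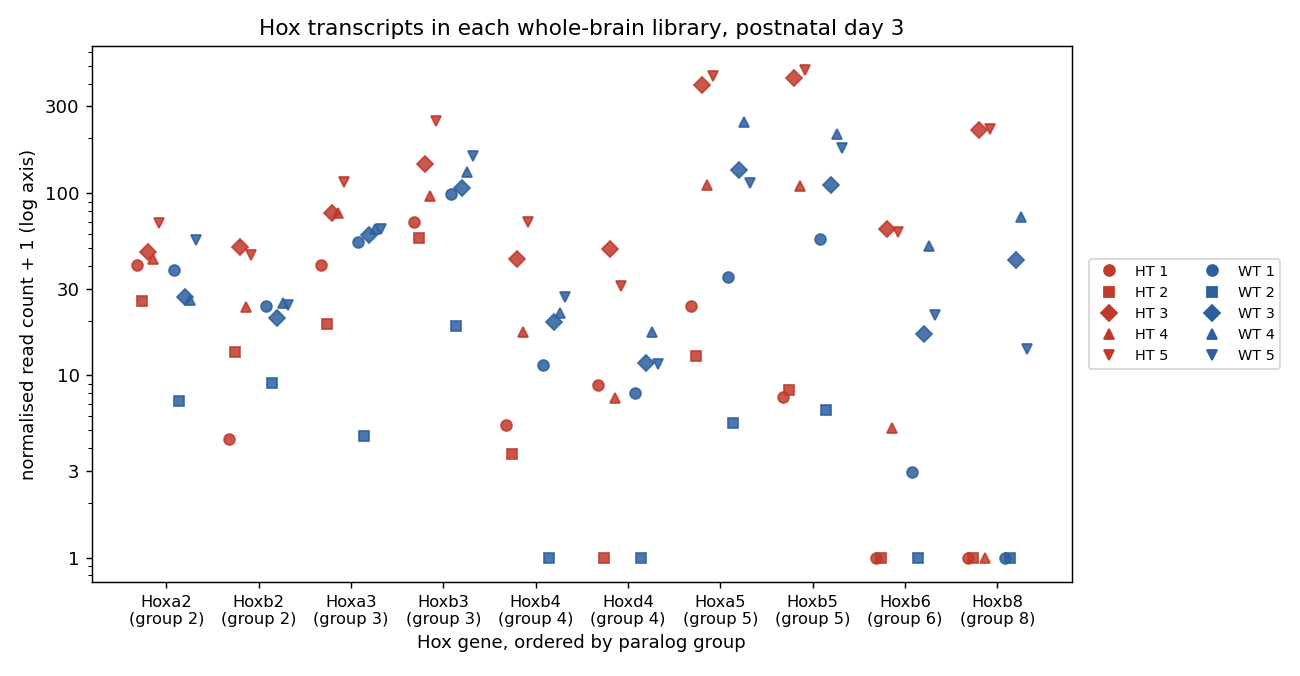
Normalised read count + 1 on a log axis for each of the 10 Hox genes, ordered by paralog group, with 1 point per library (HT red, WT blue, marker shape the replicate number). HT 3 and HT 5 are at or near the top in every gene and WT 2 is at or near the bottom, while the vertical spread widens from *Hoxa2* (6.23 to 67.6 counts) to *Hoxb8* (0 to 224 counts).

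Summed over the 10 members, the normalised count was 192, 133, 1515, 483 and 1767 in HT 1 to HT 5 and 320, 45.7, 541, 858 and 658 in WT 1 to WT 5. Its mean ± SD was 818 ± 768 over the HT mice against 484 ± 313 over the WT mice, and the range of HT enclosed all WT libraries except WT 2. The ratio of groups 5 to 8 to groups 2 and 3, which compares posterior with anterior transcripts within a library, was 0.197, 0.172, 3.49, 0.939 and 2.52 in HT and 0.429, 0.279, 1.44, 2.41 and 1.08 in WT. Libraries therefore differed not only in how much Hox RNA they held but also in its anterior-to-posterior make-up, with groups 5 to 8 making up 14.4% to 73.0% of the sum. WT 4, whose *Hoxa2* count was 24.9, had a higher posterior ratio than WT 5, whose *Hoxa2* count was 54.3. In whole-brain RNA, fewer caudal cells and less Hox RNA per cell cannot be told apart.

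**Figure D2:**
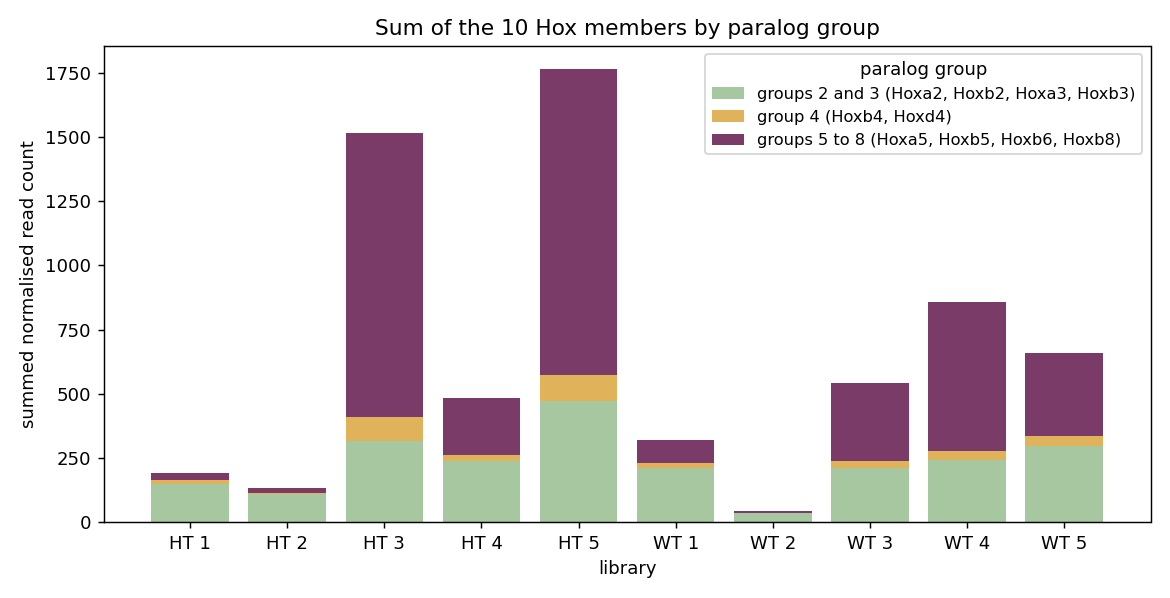
Summed normalised read count of the 10 Hox genes in each library, stacked by paralog group (green, groups 2 and 3; yellow, group 4; purple, groups 5 to 8). HT 3 (1515) and HT 5 (1767) are the tallest bars and are mostly purple, HT 1 (192) and HT 2 (133) are short and mostly green, and WT 2 (45.7) is the shortest.

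The SD over the 10 libraries of log2(count + 1) was 0.904 for *Hoxa2* and 1.05 for *Hoxb2*, 1.33 for *Hoxa3* and 1.02 for *Hoxb3*, and 1.82 and 1.84 for *Hoxb4* and *Hoxd4*. It was 2.14 for *Hoxa5*, 2.38 for *Hoxb5*, 2.53 for *Hoxb6* and 3.46 for *Hoxb8*. Over the 10 members the Spearman rho between paralog group and this SD was 0.963, while the rho between paralog group and mean level per kilobase was 0.196. The genes share their libraries and several share a cluster, so these are descriptions. Within-genotype SDs of the members lay at the 98.2 to 99.96 percentile of the 17020 genes tested, with a median of 1.92 against 0.159 for all genes. The members were selected on these same levels, and the comparison was not matched for level, so this too is a description. The 5 Hox genes of the table that are not members moved with them. *Hoxd3*, *Hoxa4*, *Hoxc4*, *Hoxc5* and *Hoxb7* had correlations with the mean of the members from 0.83 to 0.98 over the 10 libraries. *Hoxc4*, in another cluster on chromosome 15, ranged from 7.25 in WT 2 to 170.8 in HT 5.

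**Figure D3:**
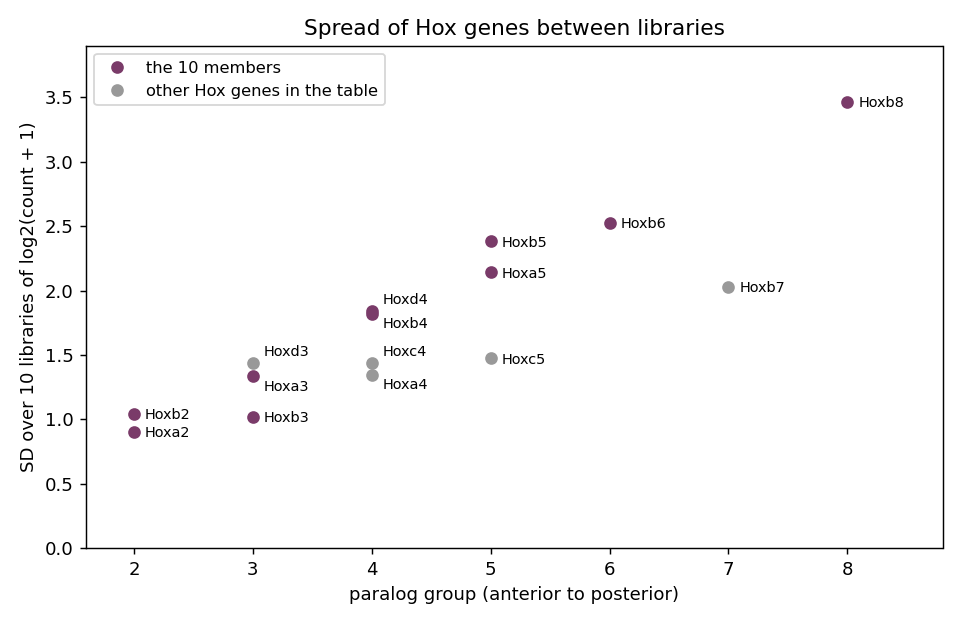
SD over the 10 libraries of log2(normalised count + 1) against paralog group, with 1 point per Hox gene (purple, the 10 members; grey, 5 other Hox genes). The SD of the members climbs from 0.904 for *Hoxa2* in group 2 to 3.46 for *Hoxb8* in group 8, and the grey genes of groups 4 and 5 lie below the members of those groups.

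Per kilobase, with the length taken as the mean over coding transcripts, the mean level over libraries was highest for *Hoxb5* (83.3 normalised counts per kilobase) and *Hoxa5* (80.4), followed by *Hoxb3* (58.5), *Hoxb8* (38.9) and *Hoxa3* (38.5). Lower levels were found for *Hoxa2* (20.8), *Hoxb2* (14.2), *Hoxb6* (13.1), *Hoxb4* (8.21) and *Hoxd4* (6.78). No 2 neighbours in this order differed by more than the larger of their SDs over libraries. With the longest transcript in its place, *Hoxb3* was at 35.1, *Hoxb8* at 21.8 and *Hoxa3* at 21.8, close to *Hoxa2* at 20.8. The order of the middle of the list also rests on few libraries, since HT 3 and HT 5 carry most of the *Hoxb8* mean. Reads of some members could also be split with other annotated transcripts. Of the 31-base words in the transcripts, 52.7% were shared with another gene for *Hoxb3* and 26.5% for *Hoxb2*, mainly the antisense RNA *Hoxb3os*. Whether the quantification used strand is not given in the sources used here, so reads of a gene and its antisense partner may not be told apart. The share was 49.1% for *Hoxd4*, 26.0% for *Hoxa3* and 13.7% for *Hoxa2*, and at most 2.55% for *Hoxb4*, *Hoxa5*, *Hoxb5*, *Hoxb6* and *Hoxb8*. The 3 noncoding RNAs of the clusters in the table, *Hotairm1*, *Hoxaas2* and *Hoxb3os*, all had means under 10 and were not tested.

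All 45 pairs of members were positively correlated over the 10 libraries on the log2 scale, with r from 0.404 for *Hoxa2* and *Hoxb8* to 0.974 for *Hoxb3* and *Hoxb4* and a median of 0.848. *Hoxa2* was the least tied to the others: its r with the mean of the other members was 0.687, and 0.278 without WT 2 and HT 2. *Hoxa5* had an r of 0.984 with the others over 10 libraries, the highest, and 0.964 without WT 2 and HT 2, where *Hoxb6* and *Hoxb4* were at 0.965. The libraries were ranked by a Hox score, the mean over the 10 members of the log2 deviation from each gene's mean. It was -1.45, -1.94, 2.04, -0.07 and 2.23 in HT 1 to HT 5 and -0.54, -2.89, 0.64, 1.19 and 0.79 in WT 1 to WT 5. The score had an r of -0.33 with the estimated reads of the library and of -0.06 with *Arid1b* itself.

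HT was compared with WT to ask whether loss of 1 *Arid1b* allele changes these transcripts. In limma, 0 of 10 members passed an adjusted p of 0.05, where 0% of all 17020 genes did, and 0 of 10 had an unadjusted p under 0.05, against 3.41% of all genes. Groups overlapped for all 10 members, where 0.629% of all genes had groups that did not. Members higher in HT numbered 8 of 10, against 46.4% of all genes, but the members rose and fell together across libraries and are not 8 separate observations. The median log2 fold change was 0.42 for the members and -0.0074 for all genes. Without HT 4, 7 of 10 members were higher in HT, the median was 0.52, and again 0 passed an adjusted or unadjusted p of 0.05, against 0.0118% and 8.4% of all genes.

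The fold changes of the members, HT minus WT of log2(count + 1), had wide intervals. *Hoxa2* had the largest, 0.76 (SE 0.46, 95% confidence interval -0.24 to 1.75), with a limma adjusted p of 1.00 and an exact two-sided permutation p of 0.214. It was 0.75 without HT 4 and 0.30 without WT 2, the library lowest in *Hoxa2*. The value was 0.06 (SE 0.59) for *Hoxb2*, 0.64 (SE 0.75) for *Hoxa3*, 0.35 (SE 0.59) for *Hoxb3*, 0.59 (SE 1.02) for *Hoxb4*, 0.49 (SE 1.03) for *Hoxd4* and -0.29 (SE 1.44) for *Hoxb6*. Exact permutation p values of the 10 members ran from 0.214 to 1. *Hoxa5* had 0.61 (SE 1.33) and *Hoxb5* -0.02 (SE 1.52), both with a limma adjusted p of 1.00. For *Hoxb8* the value was 0.04 (SE 2.07), and its interval of -4.55 to 4.62 leaves room for a change of many-fold in either direction. It was 0.82 without HT 4, which was listed at 0 for *Hoxb8*. The fold change of *Hoxb8* also depends on the 1 added to each value, since 5 libraries were listed at 0. A genotype difference within these intervals was not detectable with 5 libraries per group, and the intervals do not show that the genotypes are alike.

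**Figure D4:**
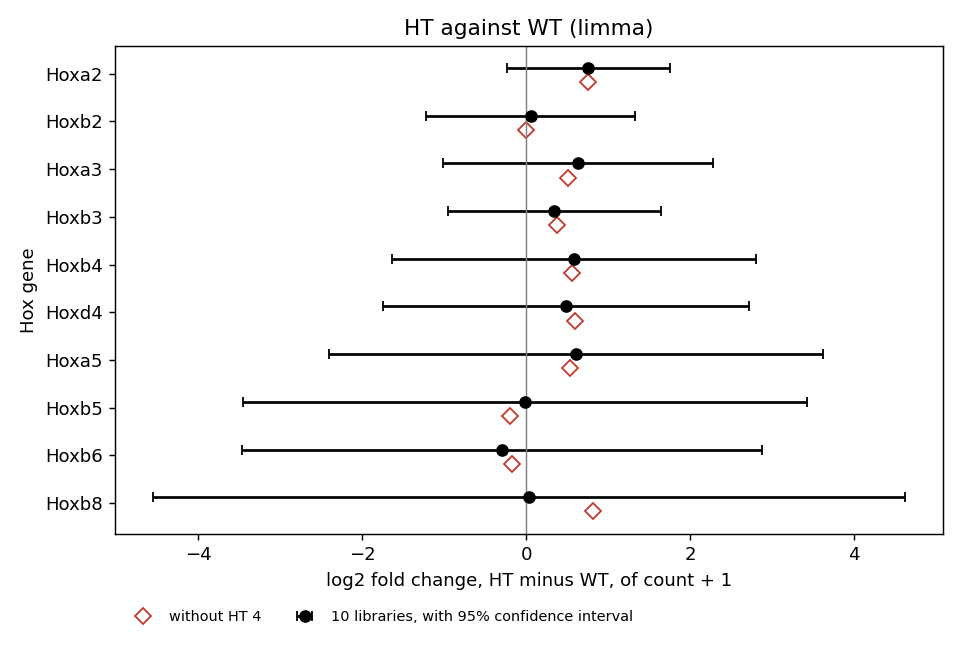
Log2 fold change, HT minus WT, of normalised count + 1 for each Hox gene from limma, with the 95% confidence interval over 10 libraries (black) and the value without HT 4 (red diamonds). Every interval crosses 0, and the intervals widen from *Hoxa2* (-0.24 to 1.75) to *Hoxb8* (-4.55 to 4.62).

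The label of these genes as a sign of caudal tissue was set against a list of 32 genes of hindbrain and spinal cord neurons, of which 30 were tested. The list score, a mean log2 deviation like that of the Hox genes, was 0.03, -0.22, 0.17, 0.26 and 0.13 in HT 1 to HT 5 and 0.16, -0.66, 0.04, 0.02 and 0.08 in WT 1 to WT 5. WT 2 was low for this list as it was for the Hox genes, and HT 2 came next in both. The order of other libraries differed, since HT 4 was highest for this list with a Hox score of -0.07, and WT 4 was at 0.02 for this list with a Hox score of 1.19. Summed over the list, the normalised count was 11001 to 12804 in HT and 9261 to 11305 in WT, and no tested gene of it was listed at 0. The r between the scores was 0.72 over 10 libraries and 0.08 without WT 2 and HT 2. *Slc6a5*, the glycine transporter of inhibitory neurons in hindbrain and cord, had 106 in WT 2 and 392.1 to 774 in the other libraries. *Slc17a6* and *Nr2f2*, the most abundant genes of the list and expressed in other regions too, had an r of 0.21 and 0.13 with the Hox score. Of the 30 genes, 25 were higher in HT, 0 passed an adjusted p of 0.05 and 3 had an unadjusted p under 0.05, with a median log2 fold change of 0.13 and 0.06 without HT 4. Over all genes 46.4% were higher in HT and 3.41% had an unadjusted p under 0.05.

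A few genes of the caudal list followed the Hox score more closely, and except for *Lmx1b* they were singled out after their values were seen. *Prrxl1*, a factor of dorsal horn and sensory neurons, rose from 11.65 in WT 2 to 107.5 in HT 5 (r 0.92, and 0.83 without WT 2 and HT 2). *Pax8*, a factor of inhibitory interneurons of hindbrain and cord, had 73.6 in HT 3 and 101 in HT 5 but 9.96 to 45.6 in the other libraries (r 0.90 and 0.78). *Lmx1b*, needed in dorsal horn, serotonin and midbrain dopamine neurons, ranged from 78.6 in WT 2 to 180.4 in HT 3 (r 0.88 and 0.80). These genes do not stand for the list, in which 24 of 30 tested genes had a positive r over 10 libraries, with a median of 0.23. Without WT 2 and HT 2, *Tlx3* (r 0.17 and -0.78), *Nkx6-1* (-0.01 and -0.73) and *Barhl1* (-0.09 and -0.69) went the other way. They too were singled out after their values were seen.

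**Figure D5:**
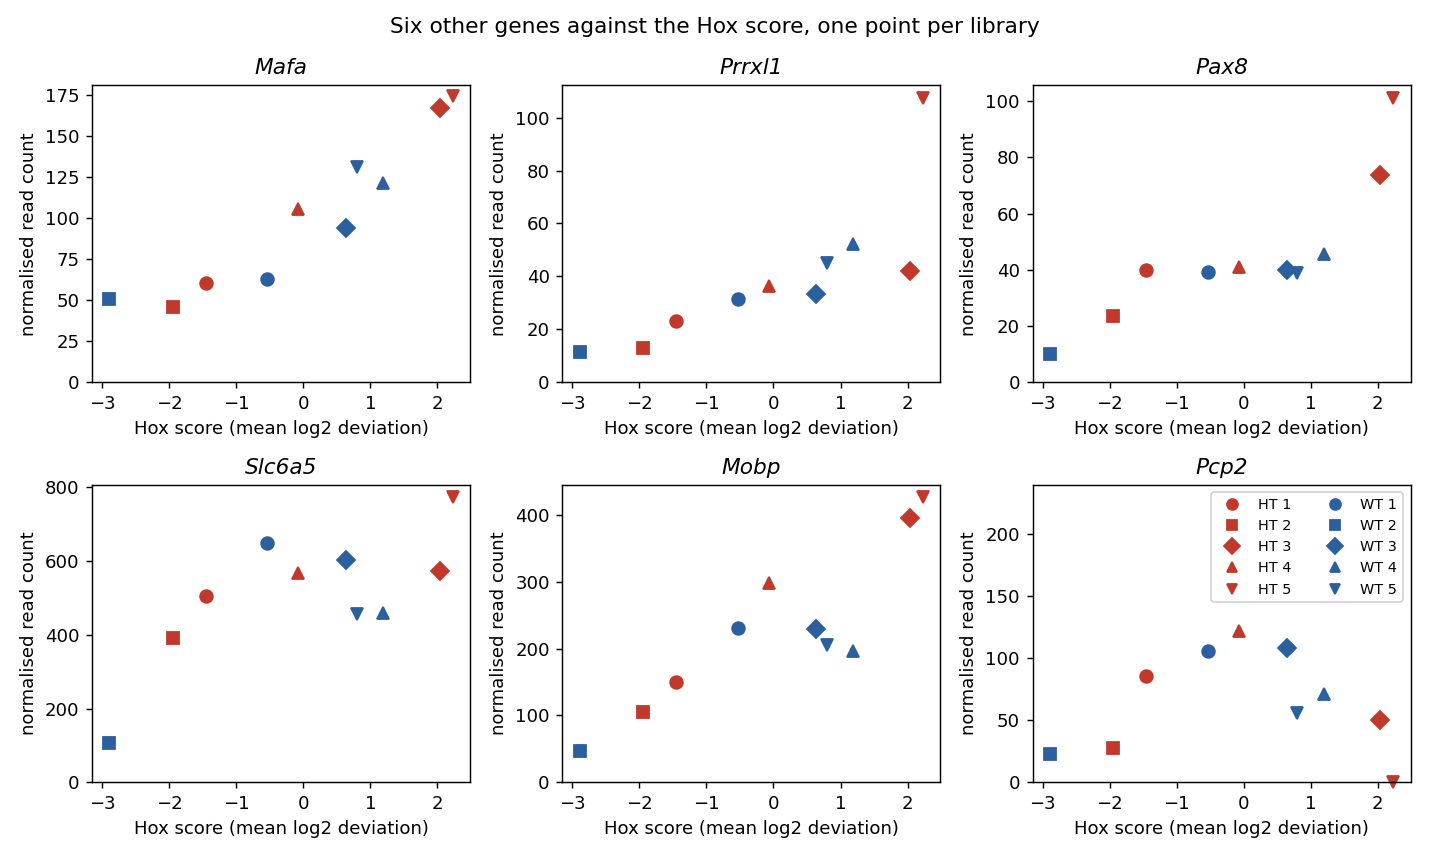
Normalised read count of 6 genes against the Hox score (mean log2 deviation of the 10 members), with 1 point per library (HT red, WT blue, marker shape the replicate number). *Mafa*, *Prrxl1*, *Pax8* and *Mobp* are highest in HT 3 or HT 5, *Slc6a5* stands out by its low count of 106 in WT 2, and *Pcp2* is at 0.279 in HT 5, the library with the highest Hox score.

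Lists of other regions and of attached tissues were set beside the Hox score in the same way. The r with the Hox score was 0.18 for motor neuron genes, 0.11 for serotonin neurons, 0.31 for noradrenaline neurons, 0.25 for midbrain, 0.21 for forebrain and -0.15 for cerebellum. For tissue that can adhere to a brain it was -0.31 for peripheral sensory ganglia, -0.18 for skeletal muscle, -0.60 for fibroblasts and meninges, -0.12 for choroid plexus, 0.41 for erythroid cells and -0.43 for microglia. Over all 10 libraries each of these lay nearer to 0 than the 0.72 of the caudal neuron list. Without WT 2 and HT 2, where that list was at 0.08, r was -0.66 for peripheral sensory ganglia, -0.64 for cerebellum, -0.50 for fibroblasts and meninges, 0.50 for forebrain, -0.46 for noradrenaline neurons, -0.44 for microglia and 0.35 for erythroid cells. It was 0.30 for serotonin neurons, -0.22 for motor neurons, -0.10 for midbrain, 0.07 for choroid plexus and -0.05 for skeletal muscle, so the link of the caudal list with the Hox score rests on those 2 libraries. Over the 3 most abundant genes of each list, r ran from -0.66 for *Slc6a2*, the noradrenaline transporter, to 0.79 for *Ret*, a receptor of motor and other neurons. The cerebellum, which lies on the hindbrain, stood out in 1 library. HT 5, the richest in Hox RNA, had the lowest cerebellar score (-0.89, against -0.27 to 0.48 in the others), and *Pcp2*, a Purkinje cell gene, was at 0.279 there and at 22.6 to 122 in the other libraries. *Atoh1*, the factor of granule cell precursors, was at 2.94 in HT 5 and at 11.5 to 64.1 elsewhere, and both genes were singled out after their values were seen. The parts that dissection and the included length of cord play in these differences were not tested. Summed over the list, cerebellar genes had 11808 to 18307 in HT and 14130 to 17572 in WT. In each of these 12 lists, 0 genes passed an adjusted p of 0.05 between HT and WT, with or without HT 4. At an unadjusted p under 0.05, 5 of 10 choroid plexus genes were lower in HT, while the other 11 lists had 0 to 2 genes past it in either direction. Genes lower in HT numbered 9 of 10 for choroid plexus, 12 of 12 for microglia and 9 of 10 for skeletal muscle. They numbered 15 of 19 for forebrain and 13 of 16 for cerebellum. Genes higher in HT numbered 6 of 6 for erythroid cells, 5 of 5 for noradrenaline, 8 of 9 for motor and 8 of 10 for serotonin neurons. They numbered 7 of 11 for peripheral sensory ganglia, 6 of 12 for midbrain and 6 of 14 for fibroblasts and meninges. Of all genes tested, 46.4% were higher in HT and 3.41% had an unadjusted limma p under 0.05 in either direction. Genes of a list share their libraries and are not separate observations, so these counts are a description.

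The TALE cofactors, the PBX, MEIS and PKNOX homeodomain proteins that bind DNA with Hox proteins, shifted little but in step with the Hox genes. Their list score ran from -0.08 in WT 2 to 0.09 in HT 3, with an r of 0.91 with the Hox score and 0.87 without WT 2 and HT 2, and each of the 9 genes had a positive r. *Meis2* (5398 to 6946), also expressed in the forebrain, had an r of 0.49. *Pbx3* (1753 in HT 2 to 2171 in HT 3) had 0.83. Of the 9 genes, 6 were higher in HT, against 46.4% of all genes. None passed an adjusted or unadjusted p of 0.05, and the median log2 fold change was 0.0045.

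Genes upstream of Hox expression in the embryo were less tied to the score. Of 16 genes that make, bind or break down retinoic acid, the signal that induces anterior Hox genes, 8 were higher and 8 lower in HT and 0 passed an adjusted p of 0.05. The list had an r of -0.04 with the Hox score. *Rxrb*, *Cyp26b1* and *Rxrg*, its most abundant members, had log2 fold changes of -0.08, -0.14 and 0.01. *Aldh1a2*, which makes retinoic acid, had 0.18 (SE 0.08), with an unadjusted limma p of 0.044 and an adjusted p of 1.00. The list of other upstream regulators had an r of 0.39. Among its abundant members were *Gdf11* (r 0.65), a signal for trunk-to-tail Hox expression, and *Zfp703* (0.29), and 0 of 7 tested genes passed an adjusted p. Of 26 Polycomb and MLL genes, whose proteins keep Hox chromatin silent or active, 21 were lower in HT and 0 passed, where 46.4% of all genes were higher in HT. The genes share their libraries and are not separate observations. Their median log2 fold change was -0.04 and -0.02 without HT 4. HT 4 had the lowest score of this list (-0.17) and was the lowest library for several of its genes, *Kmt2a* among them. *Cbx6* and *Rbbp4*, which with *Kmt2a* are the most abundant, had log2 fold changes of 0.09 and -0.10. The r of the list with the Hox score was -0.09.

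Outside the Hox family, 14042 genes with a mean of at least 50 were ranked by their r with the Hox score, of which 39 lay above 0.8 and 27 below -0.8. The 10 most alike were *Mafa* (r 0.954), *Pomk* (0.928), *Hdac6* (0.924), *Serpinb1b* (0.899), *Mobp* (0.892), *Mgat5b* (0.885), *Lmx1b* (0.885), *Oxa1l* (0.879), *Tshz2* (0.877) and *Fbxl21* (0.856). *Mafa*, a transcription factor with 45.9 counts in HT 2 and 175 in HT 5, and *Mobp*, a myelin gene with 47.0 in WT 2 and 426 in HT 5, ranged widely. *Hdac6*, a cytoplasmic deacetylase, ranged only from 2744 to 3118. The 5 most opposite genes were *4930513N10Rik* (-0.904), *BC005537* (-0.896), *Cyp20a1* (-0.896), *Fbxo33* (-0.881) and *Cop1* (-0.872). Myelin genes were then taken as a list after *Mobp* had been seen. All 11 in the table had a positive r with the Hox score. The list had an r of 0.78, and 0.49 without WT 2 and HT 2. *Mobp* is 1 of the 11 and was found by its r, so these values are a description. The list score was lowest in WT 2 (-0.61) and highest in HT 3 (0.44). HT 4 was at 0.40 with a Hox score of -0.07, and WT 4 at -0.13 with a Hox score of 1.19. Myelination begins in the hindbrain and cord. All 11 myelin genes, *Mobp* included, were higher in HT, against 46.4% of all genes, with a median log2 fold change of 0.28. In limma, 0 passed an adjusted p of 0.05 and 2 had an unadjusted p under 0.05, against 3.41% of all genes. Myelin genes share their libraries and are not separate observations.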

How the data were processed

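Poly-A mRNA of whole brains from 5 HT and 5 WT male mice at postnatal day 3 was sequenced paired-end. Per the labels and the study's methods, the authors quantified reads with Salmon 1.1.0 against GRCm38 and divided the gene estimates by DESeq2 1.30.1 size factors. The deposited table holds this signal, a normalised read count that need not be whole, and its annotation release and filter on low genes are not given in the sources used here. Salmon divides reads between similar transcripts, so a gene that overlaps another can gain or lose reads.

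Symbols and positions came from GENCODE M21. The test was limma-trend on log2(value + 1) (limma 3.58.1, R 4.3.3, robust empirical Bayes, no covariate, two-sided) over 17020 genes with a mean of at least 10. Another 1424 genes were left out. Benjamini-Hochberg adjustment ran over all genes tested with a threshold of 0.05, and an exact permutation test over 252 assignments, with a smallest p of 0.00794, was run per member. A fold change on this scale understates the change of low genes. Errors reflect variation among the mice, with 24.96 M to 31.2 M estimated reads behind each library. The fit was tested on simulated data, with changes placed only in genes of higher level and smaller spread than the Hox members. That test therefore does not show what the fit can detect in genes like these members.

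The members and gene lists were chosen with earlier results of these data known. Named genes were the members, other Hox genes, *Arid1b*, the 3 most abundant genes of each list (by their range for regions and tissues), genes of the retinoic acid and TALE lists with an unadjusted p under 0.05, and the 10 genes most and 5 least like the Hox score. Others are named as chosen after their values were seen. Values of some single genes that this rule covers are not reported here. Alternatives were another pseudocount, filter, scaling, weighting, a replicate block, a length and GC trend, and leaving out each library.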

Additional observations from a re-analysis of the deposited data

Results flagged for a closer look

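Among the WT libraries, WT 2 lay apart at the low end for some genes and lists. The gap to the nearest library as a share of the group's range, set against Dixon's critical value for 5 samples, was 0.811 for *Hoxb2*, 0.936 for *Hoxa3*, 0.779 for *Hoxb3*, 0.739 for *Hoxb4* and 0.731 for *Hoxd4* on the log2(count + 1) scale. It was 0.763 for *Hoxd3* and 0.732 for *Hoxa4*. The same library lay lowest for the list scores of other upstream regulators (0.766), of hindbrain and spinal cord neurons (0.823) and of noradrenaline neurons (0.7102). In HT, HT 5 lay lowest for the choroid plexus score (0.772).

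These were the 11 of 66 groups past the critical value, which chance passes in about 1 of 20. The Hox levels had already chosen the members, so their gaps are a description and their number is not set against chance. In WT the gap stayed below the critical value for *Hoxa2* (0.628), *Hoxa5* (0.484), *Hoxb5* (0.620), *Hoxb6* (0.273), *Hoxb8* (0.126) and the Hox score (0.577). The Hox genes and the caudal lists share libraries and overlap in what they measure, so the flags of WT 2 are 1 pattern and not 10. Leaving out WT 2 moved the log2 fold change of *Hoxa2* from 0.76 to 0.30.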

How the results depend on the processing

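None of the 10 members passed an adjusted p of 0.05 under any alternative run, and with a minimum mean of 100 only *Hoxb3*, *Hoxa5* and *Hoxb5* remained to be tested. Of all genes, the count past the threshold was 0 with 10 libraries, 2 with array weights (*Arid1b* and *Adamtsl3*), 1 with the length and GC trend removed (*Arid1b*), and 0 to 2 when 1 library was left out, the 2 coming without HT 4 (*Arid1b* and *Adamtsl3*). The direction of the small member fold changes was not stable. With a pseudocount of 0.5 *Hoxb8* was at -0.15, and of 83 fold changes under alternatives other than leaving out 1 library 7 turned. The other 6 came without HT 3 and HT 5 together, chosen after seeing the data: *Hoxb2* -0.78, *Hoxb3* -0.21, *Hoxb4* -0.61, *Hoxd4* -0.82, *Hoxa5* -0.87 and *Hoxb8* -3.09. Leaving out 1 library gave ranges of 0.30 to 1.04 for *Hoxa2*, -0.28 to 0.60 for *Hoxb2*, -0.10 to 1.02 for *Hoxa3*, -0.20 to 0.58 for *Hoxb3*, -0.27 to 1.11 for *Hoxb4*, -0.22 to 1.32 for *Hoxd4*, -0.25 to 1.31 for *Hoxa5*, -0.87 to 0.77 for *Hoxb5*, -1.08 to 0.42 for *Hoxb6* and -1.14 to 0.82 for *Hoxb8*, and 23 of 100 such values turned.

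HT and WT share replicate numbers, but the deviations of same-numbered libraries over all genes correlated only at -0.10 to 0.09, so the numbers were not taken as pairs. With a replicate block, 0 members and 0 genes passed an adjusted p of 0.05, and the SE of *Hoxa2* was 0.267 in place of 0.459, with an unadjusted limma p of 0.0207. The Hox deviations of numbers 1 to 5 were -1.61, -2.10, 1.88, -0.23 and 2.07 in HT and -0.37, -2.73, 0.80, 1.35 and 0.95 in WT. The signs matched for 4 of 5 numbers. The SE with the block was also smaller for the other 9 members, as for *Hoxa3* (0.316 against 0.749), *Hoxb4* (0.463 against 1.02), *Hoxa5* (0.438 against 1.33) and *Hoxb5* (0.610 against 1.52). What a number stands for is not stated. Depth limits low entries such as those of *Hoxb8*, since 3 reads were worth 2.70 to 3.41 normalised counts.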
